A study of Rattus norvegicus with 16 samples.

Results

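The mitochondrial genome encodes 6 of the genes described here, the cytochrome b gene Mt-cyb, the cytochrome c oxidase genes Mt-co1, Mt-co2 and Mt-co3, and the ATP synthase genes Mt-atp6 and Mt-atp8. They are 6 of the 32545 genes in the deposited tables and were taken by Ensembl identifier. No measured value entered this rule, although the genes were chosen with earlier results of these data known. In the order given, the identifiers are ENSRNOG00000031766, ENSRNOG00000034234, ENSRNOG00000030371, ENSRNOG00000030700, ENSRNOG00000031979 and ENSRNOG00000033299. The names come with this list of identifiers, since the files themselves hold no gene names or coordinates. The build was Rnor_6.0, and all 6 genes lie outside the nuclear chromosomes.

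Hearts were taken at week 6 from 16 male Wistar rats that were 6 to 8 weeks old at the start and carried no genetic change. DOX high rats (n = 6, animal numbers 30 to 33, 38 and 39) had received 5 weekly intravenous injections of 3 mg/kg doxorubicin (DOX), an anthracycline used in chemotherapy, or 15 mg/kg in all. Saline rats (n = 10, animal numbers 5 to 10 and 34 to 37) had received saline by the same route, in 5 weekly injections by the sample labels and 6 by the methods. Each polyadenylated RNA library was made from about 30 mg of the heart of 1 rat and held between 13784896 and 18025615 counted fragments. The libraries of 2 rats stood apart. Of the 1762 genes called between the groups without the library labelled saline rat 37, that library lay nearer to the DOX high average in 1352, or 76.7%, against 4.65% to 22.5% in the other saline rats, which had been used to choose these genes. DOX high rat 32 held the highest scaled level of 2953 genes, where any other rat did so for 280 to 1981. Results are therefore also given without each of these rats.

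Mitochondrial DNA is a small circle that is transcribed as long RNAs from each strand. These are cut mostly at the transfer RNA genes between the coding regions and then polyadenylated. Its proteins are core parts of the respiratory chain in the inner membrane. Cytochrome b passes electrons through complex III. Subunits 1, 2 and 3 form the catalytic core of complex IV, which hands electrons to oxygen. ATP synthase subunit a, from Mt-atp6, lines the proton path, and subunit 8, from Mt-atp8, is a small membrane part of the same enzyme. Mt-atp8 and Mt-atp6 overlap and share 1 messenger RNA. The heart muscle cell is packed with mitochondria, and these RNAs are among the most abundant in cardiac tissue. The comparison asks whether they differ after DOX, since the study reported fewer mitochondria and lower complex IV activity in DOX high hearts. These were measured in a separate cohort of rats, as DNA copies of cytochrome b and as enzyme activities, not as RNA. A supplementary figure also shows cytochrome b copies, with saline and DOX high data that its legend assigns to the cohort used for RNA.

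None of the 6 genes differed detectably between DOX high and saline hearts. Together they took 22.6% ± 4.41 (SD, n = 10) of the counts in saline and 21.2% ± 3.51 (SD, n = 6) in DOX high libraries. On the scaled counts all 6 averages were lower in DOX high hearts, at 0.881 to 0.924 times those of saline hearts, differences inside the spread between rats. At the call threshold used, an adjusted p under 0.05 in edgeR's quasi-likelihood test over all genes, 6.25% of the genes tested were called and 0 of these 6. With an unadjusted p under 0.05 the number was also 0, as it was with DESeq2 and with limma. For no member did the groups separate, and 0.889% of the genes tested showed no overlap between DOX high and saline rats. With shares this low, 0 of 6 does not set these genes apart from the other genes tested.

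The summed share varied more among saline rats than between the groups. It ran from 14.4% in saline rat 6 through a median of 25.0% to 26.5% in saline rat 7. In DOX high hearts it ran from 14.5% in rat 32 through a median of 22.0% to 24.3% in rat 38. All 6 DOX high values lay below the saline median, and all 6 lay within the saline range. The saline rats formed no even series. Rats 6, 36 and 37 had 14.4%, 17.3% and 17.8%, and the other 7 had between 23.4% and 26.5%. In the DOX high group, 5 rats fell between 21.1% and 24.3%, at the lower end of these 7 or just under them, and rat 32 was alone at the bottom. Counting error is small at this depth, with a 95% Wilson interval of 14.40% to 14.44% in saline rat 6, and covers counting alone.

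**Figure D1:**
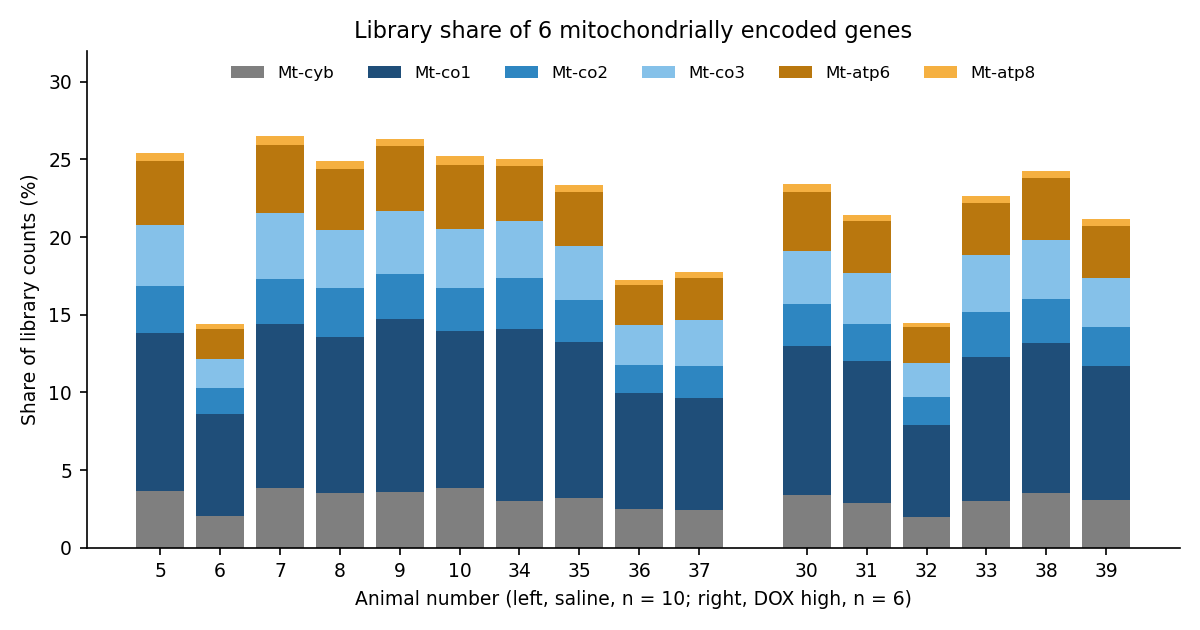
Share of library counts (%) on each of the 6 genes, stacked, for each rat by animal number, with 10 saline rats on the left and 6 DOX high rats on the right. The stack reached 26.5% in saline rat 7 and only 14.4% in saline rat 6 and 14.5% in DOX high rat 32, and Mt-co1 was the largest layer in every rat.

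Without DOX high rat 32, the DOX high share was 22.6% ± 1.32 (SD, n = 5), close to the saline average. That average kept saline rat 6, whose share was the lowest of all rats. Leaving out saline rat 6 instead widened the difference in summed share, DOX high minus saline, from -1.40 to -2.31 percentage points. Without saline rat 37, the saline share was 23.2% ± 4.31 (SD, n = 9). The animal numbers fall into blocks, since numbers 5 to 10 are saline rats only. Saline rats 5 to 10 had a share of 23.8% ± 4.64 (SD, n = 6) and saline rats 34 to 37 of 20.9% ± 3.93 (SD, n = 4). Among animals 30 to 39 the saline average was thus just under that of DOX high rats. This order turned without saline rat 37, as saline rats 34 to 36 had a share of 21.9% ± 4.09 (SD, n = 3), just above the DOX high average. It did not rest on that rat alone, since saline rat 36 had a lower share still. Animals were numbered in sequence whatever their treatment, and whether a run of numbers shared a date or a batch is not given in the sources used here. The library codes also ran by group, with all saline codes before all DOX high codes, and what their order marks is not given. Group and code order cannot be told apart here.

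Per unit of length, Mt-co1 was the most abundant RNA of all genes in 16 of 16 libraries and Mt-atp6 the second in 16 of 16. TPM divides counts by gene length and scales each library to the same total, so it allows levels to be set side by side between genes. Mt-co3 followed, at the third place in 14 libraries, then Mt-co2, Mt-cyb and Mt-atp8. Together the 6 made up 32.8% ± 4.82 (SD, n = 10) of TPM in saline and 30.96% ± 4.282 (SD, n = 6) in DOX high libraries. They were the 6 highest of all genes in 15 libraries. In saline rat 6 another gene reached 42652 TPM and stood above 4 of them. By counts, without regard to length, Mt-atp8 ranked only between 18 and 34, as its length in the tables was 0.132 of that of Mt-co1.

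The order of the levels held within rats even where the ranges of neighbouring genes overlapped between rats. Mt-co1 exceeded Mt-atp6 by 1.06 to 1.45 times and Mt-atp6 exceeded Mt-co3 by 1.06 to 1.29 times, in TPM, in every library. Mt-co3 and Mt-co2 were the only neighbours whose order turned, in saline rats 6 and 34, with a Mt-co3 to Mt-co2 ratio between 0.939 and 1.28. Mt-co2 exceeded Mt-cyb by 1.198 to 1.80 times and Mt-cyb exceeded Mt-atp8 by 1.16 to 1.37 times in all 16.

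**Figure D2:**
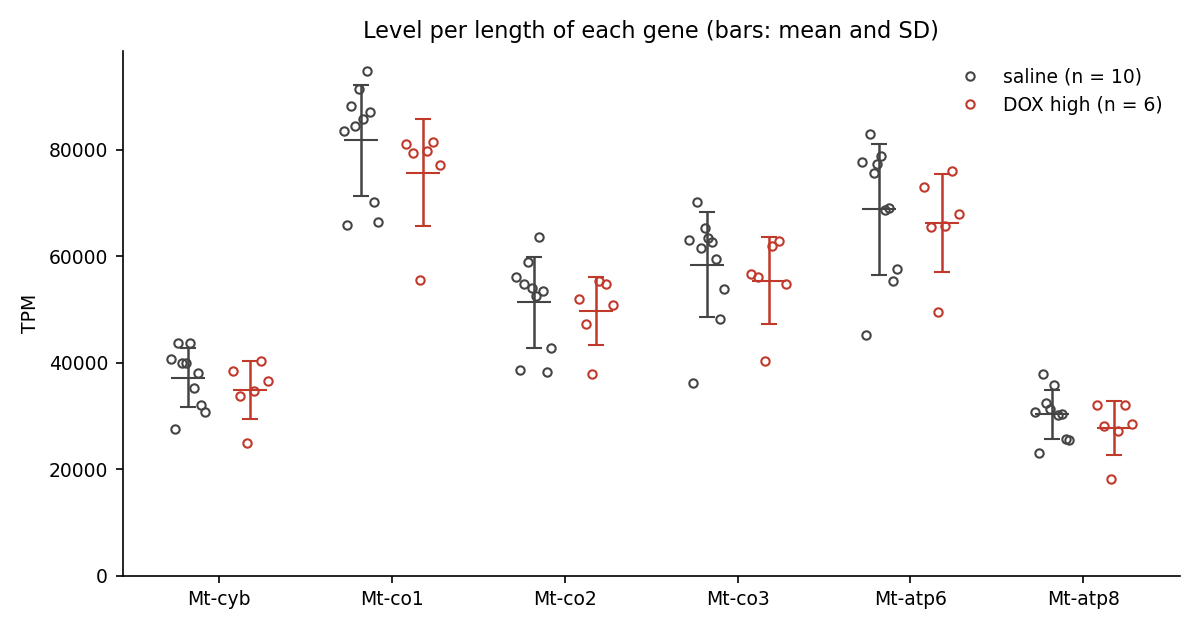
TPM of each of the 6 genes, with 1 circle per rat (grey, saline, n = 10; red, DOX high, n = 6) and bars for the mean and SD. The clouds of the groups overlap for each gene, and in each gene the lowest DOX high circle is rat 32.

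Mt-cyb encodes the only mitochondrially made subunit of complex III. Its level ran from 27535 TPM in saline rat 6 through a median of 39035 to 43721 TPM in the saline group. In DOX high hearts it ran from 24955 TPM in rat 32 through a median of 35677 to 40353 TPM in rat 38. One DOX high rat lay below the saline range and the other 5 within it. The log2 fold change of the scaled counts was -0.15 (standard error 0.24, 95% interval -0.66 to 0.35, adjusted p = 0.736 in the edgeR test). As a share of counts, Mt-cyb took 3.18% ± 0.645 (SD, n = 10) of saline and 2.97% ± 0.546 (SD, n = 6) of DOX high libraries.

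Mt-co1 encodes the subunit of complex IV that binds the heme and copper centre where oxygen is reduced. Its level ran from 65797 TPM through a median of 85106 to 94764 TPM in saline hearts and from 55480 TPM through a median of 79585 to 81439 TPM in DOX high hearts. All 6 DOX high values were below the saline median, and 5 lay within the saline range. The log2 fold change was -0.17 (standard error 0.25, 95% interval -0.69 to 0.35, adjusted p = 0.718 from the edgeR test). It alone took 9.43% ± 1.69 (SD, n = 10) of the counts in saline and 8.71% ± 1.41 (SD, n = 6) in DOX high libraries.

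Mt-co2 encodes the subunit that accepts electrons from cytochrome c. It ran from 38304 TPM in saline rat 36 through a median of 53822 to 63612 TPM in saline rat 34, against 37971 TPM through a median of 51403 to 55294 TPM in DOX high hearts. Of the DOX high values, 4 of 6 were below the saline median, and the lowest, from rat 32, was just under the lowest saline value. Its log2 fold change was nearest to 0 of the 6 genes, at -0.11 (standard error 0.24, 95% interval -0.62 to 0.39, adjusted p = 0.809 from the edgeR test).

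Mt-co3 encodes the third core subunit, which holds no redox centre. It ran from 36271 TPM through a median of 62136 to 70170 TPM in saline hearts and from 40279 TPM through a median of 56332 to 62951 TPM in DOX high hearts. All 6 DOX high values fell within the saline range. The log2 fold change was -0.14 (standard error 0.25, 95% interval -0.67 to 0.39, adjusted p = 0.769 from the edgeR test). The 3 complex IV genes together took 15.5% ± 2.94 (SD, n = 10) of the counts in saline and 14.5% ± 2.35 (SD, n = 6) in DOX high libraries.

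For the ATP synthase, Mt-atp6 ran from 45273 TPM through a median of 72292 to 82903 TPM in saline hearts and from 49589 TPM through a median of 66800 to 76013 TPM in DOX high hearts. All 6 DOX high values lay within the saline range. The log2 fold change was -0.12 (standard error 0.25, 95% interval -0.66 to 0.41, adjusted p = 0.804 from the edgeR test). Mt-atp8 ran from 23131 TPM through a median of 30569 to 37791 TPM in saline hearts and from 18191 TPM through a median of 28347 to 32051 TPM in DOX high hearts. One DOX high value, that of rat 32, was below all saline values. Mt-atp8 lay farthest below saline on average among the 6 genes, by a log2 value of -0.18 (standard error 0.23, 95% interval -0.67 to 0.30, adjusted p = 0.671 from the edgeR test).

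In fold terms, the 95% intervals of the 6 genes ran from 0.620 to 0.650 at the lower end and from 1.23 to 1.33 at the upper end. Changes of this size in either direction are therefore not distinguished from no change by these 10 and 6 rats. The size of the differences moved with the scaling and with single rats. With the total count in place of the TMM factor, a scaling factor per library that makes most genes equal between libraries, the log2 fold changes were between -0.13 and -0.05 and the standard errors between 0.14 and 0.17. Without DOX high rat 32, the log2 fold changes were between -0.03 and 0.01, and Mt-co2 and Mt-atp6 were above 0. Without saline rat 6, they were between -0.26 and -0.19, with all 6 genes below 0. Without saline rat 37, 13.0% of all genes tested were called and 0 of the 6 members, whose log2 fold changes were between -0.22 and -0.16.

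The spread itself followed the scaling. The TMM factor ran from 0.885 to 1.36, and the 4 libraries with the lowest shares on the 6 genes, from saline rats 6, 36 and 37 and DOX high rat 32, had the 4 highest factors. Over the 16 libraries, Pearson's r between the summed share and the log2 factor was -0.92, and within the 10 saline libraries it was -0.95. This is a description, since both values are computed from the same counts. As a result, scaled counts of the members varied more between rats than their shares did. Among saline rats the coefficient of variation of Mt-atp6 was 30.5% in scaled counts and 23.1% as a share of the library. The median over all genes tested was 20.2% in scaled counts, and 62.6% to 70.7% of the genes tested varied less than a given member.

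**Figure D3:**
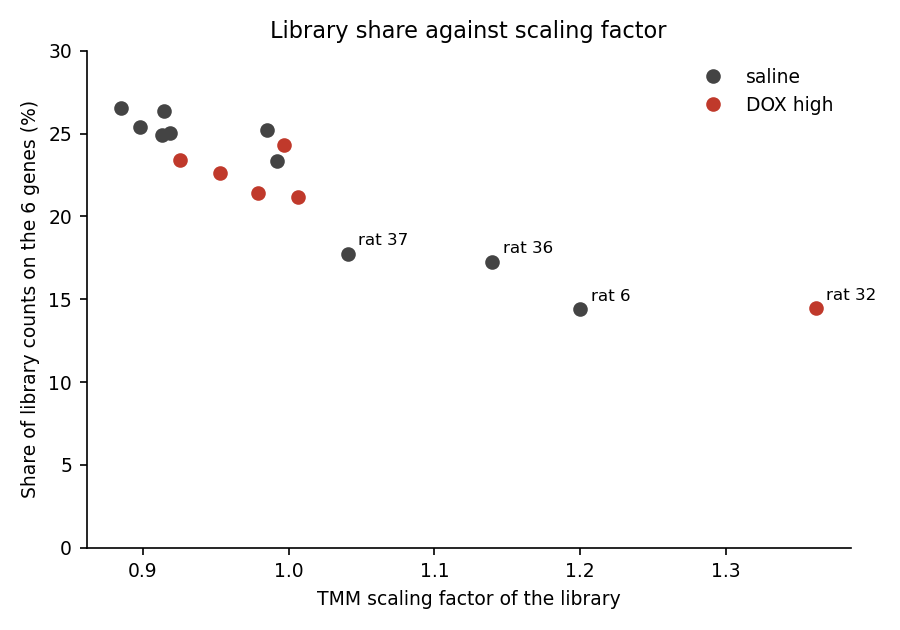
Share of library counts on the 6 genes (%) against the TMM scaling factor of the library, with 1 point per rat (grey, saline; red, DOX high). Rats 37, 36, 6 and 32 have the lowest shares and the highest factors, up to 1.36 in rat 32.

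**Figure D4:**
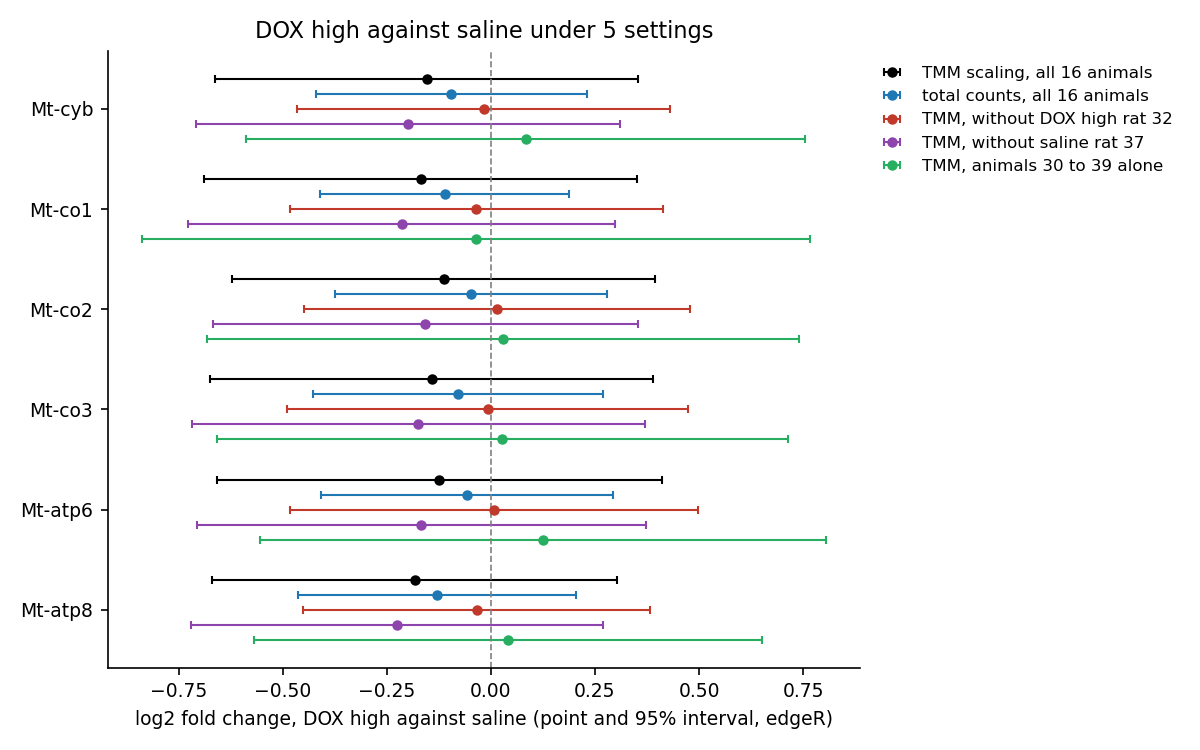
Log2 fold change of DOX high against saline for each gene, with its 95% interval from edgeR, under 5 settings. All intervals cross 0, those with total counts are the narrowest, and the points without DOX high rat 32 lie between -0.03 and 0.01.

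Among the rats with neighbouring numbers, 30 to 39, the 4 saline and 6 DOX high hearts gave log2 fold changes between -0.04 (Mt-co1) and 0.12 (Mt-atp6), with 5 of the 6 genes above 0. None of the 6 was called by the edgeR test there. This fit called 0% of the 13730 genes tested, with 1891 at an unadjusted p under 0.05, none of them a member. Both the directions and the count of calls changed when saline rat 37 was left out. The log2 fold changes then lay between -0.13 (Mt-co1) and 0.06 (Mt-atp6), with only Mt-cyb and Mt-atp6 above 0, and 2.20% of the genes tested were called, with no member among them.

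Saline rats 34 to 37 were also set against saline rats 5 to 10, where DOX plays no part. All 6 genes were lower on average in rats 34 to 37, with log2 fold changes between -0.40 (Mt-atp6) and -0.22 (Mt-co1). None was called by the edgeR test (adjusted p from 0.918 to 0.930), as 0% of the 13413 genes were, with 591 of these genes and no member at an unadjusted p under 0.05. DESeq2 called 22 genes there, none of them a member. With saline rat 37 left out, the log2 fold changes were between -0.34 (Mt-atp6) and -0.12 (Mt-co1). The edgeR test then called 0% of 13598 genes, with 372 and no member at an unadjusted p under 0.05.

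The 6 RNAs moved together from rat to rat. In scaled counts, Pearson's r between any pair of the 6 over the 16 libraries lay between 0.94 and 0.99, which describes libraries that share their depth and scaling. By the same measure, the genes most like the average of the 6 were ENSRNOG00000030644 (r = 0.99) and ENSRNOG00000031033 (r = 0.98), of 13601 others. The files do not pair these identifiers with names, so whether they too are mitochondrially encoded was not determined.

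Within the 6, the composition was far steadier than the total. Mt-co1 made up 41.9% ± 1.96 (SD, n = 10) of their summed counts in saline and 41.1% ± 0.931 (SD, n = 6) in DOX high libraries. Mt-cyb made up 14.04% ± 0.8003 and 13.9% ± 0.578, Mt-co2 11.58% ± 0.7996 and 11.9% ± 0.506, and Mt-co3 15.1% ± 1.01 and 15.2% ± 0.590, with the same n. Mt-atp6 made up 15.4% ± 0.949 and 15.8% ± 0.534, and Mt-atp8 2.04% ± 0.128 and 1.97% ± 0.136. The group averages thus lay within 1 saline SD of each other for each gene. For Mt-atp8, 2 of the 6 DOX high rats lay below the saline range, and for Mt-co1 1 did. For the other genes all 6 lay within it. The 3 complex IV genes accounted for 68.5% ± 1.66 (SD, n = 10) of the 6 in saline and 68.2% ± 1.14 (SD, n = 6) in DOX high hearts.

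**Figure D5:**
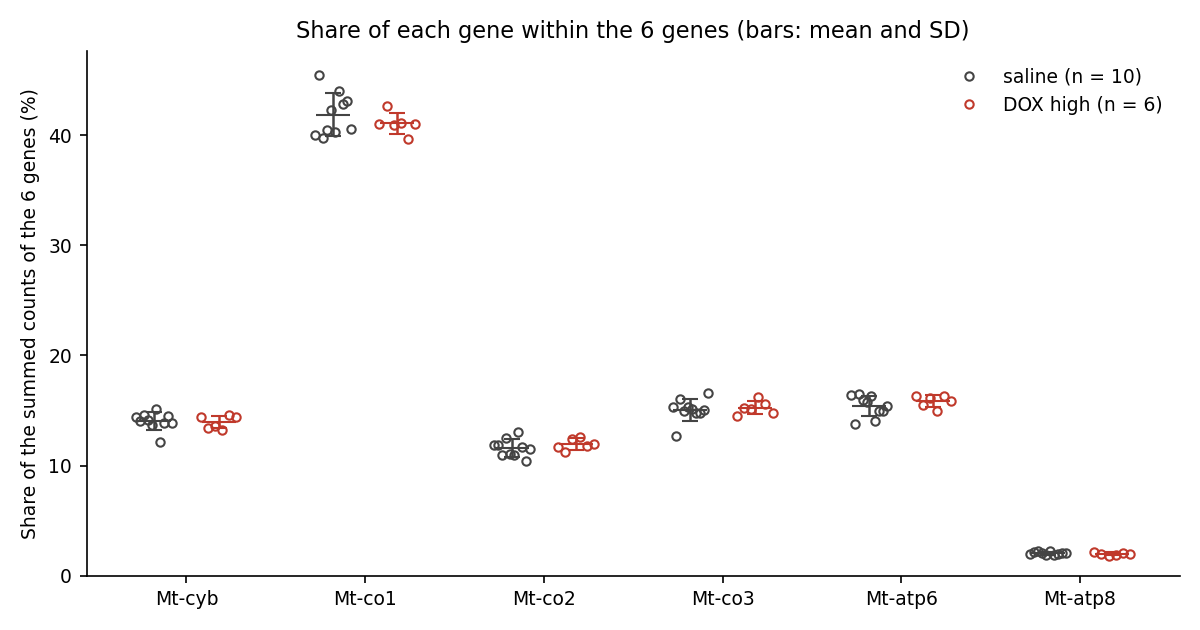
Share of each gene in the summed counts of the 6 genes (%), with 1 circle per rat (grey, saline, n = 10; red, DOX high, n = 6) and bars for the mean and SD. Mt-co1 sits near 41% to 42% in both groups, and saline rat 6 stands out as the highest circle for Mt-co1 and the lowest for Mt-co3.

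Saline rats 6 and 34 departed from this composition. Saline rat 6 had 45.5% of the 6 on Mt-co1, and the next highest saline rat had 44.0%. It had 12.7% on Mt-co3, and the next lowest had 14.8%. Saline rat 34 had the lowest Mt-cyb part, 12.1%, and the highest Mt-co2 part, 13.1%. The level of Mt-atp8 per that of Mt-atp6, which lie on the same messenger RNA, ran from 0.396 through a median of 0.441 to 0.511 in saline hearts. In DOX high hearts it ran from 0.367 in rat 32 through a median of 0.421 to 0.439 in rat 30. All 6 DOX high ratios were below the saline median, with 5 within the saline range. The average ratio was 0.444 ± 0.032 (SD, n = 10) in saline and 0.415 ± 0.025 (SD, n = 6) in DOX high hearts, given without a test. Fragments that touch more than 1 gene are left out by the counting, and how many were lost from either gene was not measured.

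In tissue RNA, fewer muscle cells or mitochondria and less RNA in each cannot be told apart. Polyadenylated RNA was selected before sequencing, so differences in the tail of these RNAs and in their amount cannot be told apart either. Marker genes of heart cell types were not examined here, for want of names.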

How the data were processed

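Strand-specific libraries from the hearts of 16 rats were read as 75 bp pairs. The authors used Hisat2 2.0.4 for alignment to Rnor_6.0, and featureCounts (Subread 1.5.0) at its defaults for counting over Ensembl 81 exons, which ignores strand and skips fragments with several alignments or on several genes. Fragments shared with nuclear copies of mitochondrial DNA or with overlapping genes may thus be missing. The deposited counts are whole numbers without normalization. The deposited TPM values were made by the authors from these counts, and 1 cell is NA. The ratio of count to TPM gave the relative gene lengths.

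Groups came from the sample labels. Genes passing filterByExpr (13607) were scaled by TMM and tested with edgeR 4.0.16 (glmQLFit, glmQLFTest) in R 4.3.3, with Benjamini-Hochberg adjustment over all of them. The standard error is the size of the log2 fold change over the square root of F. The function was tested on simulated data. Alternatives used DESeq2 1.42.0, limma 3.58.1, other scalings and filters, and subsets of rats. In all 60 pairs of libraries within a group, counts differed beyond sampling noise, and each rat was used as 1 replicate. Shares and ratios are descriptions without a test. Correlations use log2 CPM with a prior count of 2.

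Members and lists were chosen with earlier results of these data known. The rule for named genes was the 6 members and the genes outside the mitochondrial genome most correlated with their average. For want of names, only the 6 members were left out of that ranking, so other mitochondrially encoded genes could stay in it. Of the ranked genes, 2 identifiers are given. None of the 32545 identifiers was found in the RefSeq gene table (0 matches), so lists of nuclear subunits, assembly factors, mitochondrial RNA factors and cell type markers were not tested, and no sequences are shown.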

Additional observations from a re-analysis of the deposited data

Results flagged for a closer look

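The share of counts and the share within the 6 genes were examined for each gene, with the summed share, making 26 sets of values with saline and DOX high rats taken apart. In 5 sets, 1 rat lay apart from its group by a wide gap. Chance flags about 1 in 20 sets, but the sets overlap and the genes moved together, so the number of flags cannot be read against that share. In 3 of them it was DOX high rat 32, which had 14.5% of its counts on the 6 genes together, 5.93% on Mt-co1 and 0.257% on Mt-atp8. The nearest other DOX high rat had 21.1%, 8.66% and 0.418%. This library also had the highest TMM factor, 1.36, and its part in the group averages is given by the fits without it.

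Saline rat 6 had 12.7% of the 6 genes' counts on Mt-co3, where the nearest other saline rat had 14.8% and the highest 16.6%. Saline rat 34 had 12.1% of them on Mt-cyb, where the nearest other saline rat had 13.7% and the highest 15.2%. Neither rat belongs to the DOX high group, and the cause was not tested.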

How the results depend on the processing

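None of the 6 genes reached an adjusted p under 0.05 in any of 28 alternative fits (168 log2 fold changes, 152 of them below 0 and 16 above 0). The fits share rats and the 6 genes moved together, so these values are not separate observations of a direction. With animals 30 to 39 alone the direction turned, to a log2 fold change of 0.084 for Mt-cyb, 0.029 for Mt-co2, 0.028 for Mt-co3, 0.125 for Mt-atp6 and 0.041 for Mt-atp8. With the number block (5 to 10 or 30 to 39) as a covariate it turned to 0.089, 0.035, 0.034, 0.130 and 0.047 for the same genes. With saline rat 37 also left out of these 2 fits, Mt-cyb was at 0.0171 and 0.0180 and Mt-atp6 at 0.0632 and 0.0641, and the other 4 were below 0. Leaving out 1 rat at a time gave from -0.23 to -0.017 for Mt-cyb, -0.24 to -0.035 for Mt-co1, -0.19 to 0.0146 for Mt-co2, -0.24 to -0.0076 for Mt-co3, -0.21 to 0.0074 for Mt-atp6 and -0.27 to -0.034 for Mt-atp8, each time highest without DOX high rat 32. The cause was not tested.

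The number of genes called over all genes, 851, was 1574 with DESeq2, 255 and 285 with limma on log2(TPM + 1) and log2(TPM + 0.1), 0 within animals 30 to 39, 2 with the number block, 307 and 343 in these fits without saline rat 37, and 110 at an adjusted p under 0.01. Leave-one-out fits called between 345 genes, when DOX high rat 38 was dropped, and 1762, when saline rat 37 was. Genes higher among those called were 546 of 851, against 430 of 578 with total counts and 826 of 1574 with DESeq2. Upper-quartile scaling, total counts, both other filters and scaling on all genes except the 6, the last chosen after seeing the data, kept the number within 1.5 times. The difference in summed share, DOX high minus saline, was -1.40 percentage points, small beside a pooled SD between rats of 4.11. It was -1.82 by share of TPM, 0.369 in animals 30 to 39 and -0.666 there without saline rat 37, the last chosen after seeing the data. Leaving out 1 rat gave from -2.31 (saline rat 6) to -0.048 (DOX high rat 32).

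No paired analysis was possible because no animal number occurs in both groups. Scaling and shares without all mitochondrially encoded genes were not run, as the files do not name them.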
